A study of Peromyscus maniculatus and Peromyscus polionotus and Peromyscus maniculatus x Peromyscus polionotus with 18 samples.

Results

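The genes described here surround the imprinted Peg13-Kcnk9 region, and 5 symbols were named for it: Kcnk9, Trappc9, Chrac1, Ago2 and Ptk2. Of these 5 genes, 4 matched a row in both deposited tables, out of 20731 gene rows for the parental species and 11928 for the hybrids; Kcnk9 is not analysed here. Symbols were matched without regard to case. The genes were selected on the hybrids' allele counts, in which Ago2 and Trappc9 lie mostly on the maniculatus allele, so all allele shares below are descriptions without a test.

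Whole-brain RNA came from adult male deer mice, 50 to 80 days old, of the oldfield mouse *P. polionotus*, of the deer mouse *P. maniculatus* and of their F1 hybrids. Each kind of animal was killed after a burrowing trial or after a control trial, which gave 6 groups of 3 libraries, and all 18 animals had been through 2 earlier trials in large enclosures filled with sand. The hybrids' titles put *P. maniculatus* before *P. polionotus* in the cross, but the sources do not state which species was the mother. No hybrids of the reciprocal cross are in the sample list, so an effect of the parent of origin and an effect of the species of origin cannot be told apart in the allele counts.

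Imprinted genes are read mainly from the copy inherited from a particular parent. In mouse brain, the region's regulatory RNA Peg13 is made from the paternal copy inside an intron of Trappc9, Kcnk9 is read from the maternal copy, and Trappc9, Chrac1 and Ago2 have been described as biased to the maternal copy. Kcnk9 encodes a two-pore potassium channel that sets the resting potential of neurons, Trappc9 a subunit of the TRAPPII complex of membrane traffic whose loss in humans causes intellectual disability, Chrac1 a histone-fold subunit of a chromatin remodelling complex, Ago2 the argonaute protein that cuts targets of small RNAs, and Ptk2 focal adhesion kinase, which signals from integrins. In the reference annotation of *P. maniculatus* (assembly HU_Pman_BW_mat_3.1, used only for gene order because the build of the files is not given) the order is Kcnk9, Trappc9, Chrac1, Ago2, Ptk2, and 3 lncRNA records lie within the span of Trappc9. The library kit keeps the strand, but the sources do not say whether counting used it, so reads of Trappc9 and of transcripts within it may not be separated.

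Total allele-assigned counts were 22510205 to 28994982 in the burrowing hybrids and 11415175 to 53906964 in the control hybrids, and 52.6% to 53.1% of them lay on the polionotus allele. TPM values, transcript abundances scaled for length and library, keep no depth. Neuron marker sums were 1889 to 2052 TPM in *P. polionotus* and 1799 to 1963 TPM in *P. maniculatus*. Of 14 marker lists only that of oligodendrocyte precursors was separate between the species, at 29.6 to 34.2 TPM in *P. polionotus* against 25.1 to 28.9 TPM in *P. maniculatus*. Astrocyte sums overlapped narrowly, at 681 to 773 TPM in *P. polionotus* against 765 to 1009 TPM in *P. maniculatus*. So did the pituitary list, with 1 of 3 genes matched, at 1.84 to 3.90 against 3.84 to 9.67 TPM. The blood list also matched 1 gene of 3. Of single genes tested, 32.8% did not overlap between the species. In whole-brain RNA, fewer cells of a type and less RNA per cell cannot be told apart. On the second principal component of the parental libraries, which held 7.47% of the variance, polionotus burrowing replicate 3, polionotus control replicate 2 and maniculatus control replicate 3 lay apart from the rest. Summed hindbrain and spinal cord genes (5 of 5 markers matched, none at 0) were 2.44 and 6.12 TPM in polionotus control replicates 2 and 3, against 15.7 to 28.4 TPM in the other polionotus libraries and 16.3 to 24.3 TPM in *P. maniculatus*.

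Ago2 was carried almost entirely by the maniculatus allele in all hybrid brains. Its polionotus share, meaning polionotus-allele counts as a percentage of both alleles' counts, was 8.65%, 7.55% and 8.00% in the burrowing hybrids and 5.88%, 5.54% and 7.48% in the control hybrids. Every animal lay far under 50%, and the mean was 7.18% ± 1.22 (SD, n = 6 animals). These shares rest on 111 polionotus against 1172 maniculatus counts in the burrowing animal with the highest share, and on 23 against 392 counts in the control animal with the lowest. The 95% Wilson intervals, which cover counting error only, ran from 7.23% to 10.3% and from 3.72% to 8.18% in these animals. Within an animal the maniculatus allele had 10.6 to 17 times the counts of the polionotus allele.

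Trappc9, the first of the matched genes in the order, showed the same side with a somewhat larger minor share. Its polionotus share was 12.7%, 13.5% and 10.9% in the burrowing hybrids and 11.5%, 10.9% and 12.1% in the control hybrids, with a mean of 11.9% ± 1.06. The trials overlapped. Trappc9 had 1385 to 7757 allele-assigned counts per animal, so its Wilson intervals were narrower, from 11.4% to 12.9% in the deepest library. The maniculatus allele had 6.4 to 8.2 times the counts of the polionotus allele.

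Chrac1 lies between Trappc9 and Ago2 in the reference order, and its alleles were close to balanced. The polionotus share was 45.2%, 49.4% and 50.5% in the burrowing hybrids and 45.2%, 47.7% and 49.0% in the control hybrids, with a mean of 47.8% ± 2.22. It is the least counted of the 4 genes, with 73 to 292 allele-assigned counts per animal, and in the shallowest library the Wilson interval ran from 34.3% to 56.6%. That interval lies above all shares of Trappc9 and Ago2.

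Ptk2, next to Ago2 on the other side, was also near balance. Its polionotus share was 53.5%, 50.5% and 51.6% in the burrowing hybrids and 50.5%, 50.8% and 50.5% in the control hybrids, with a mean of 51.2% ± 1.19. The share was above 50% in 6 of 6 animals, and the Wilson interval of burrowing replicate 1, 51.2% to 55.8%, is the only 1 of the 6 that did not reach 50%.

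**Figure D1:**
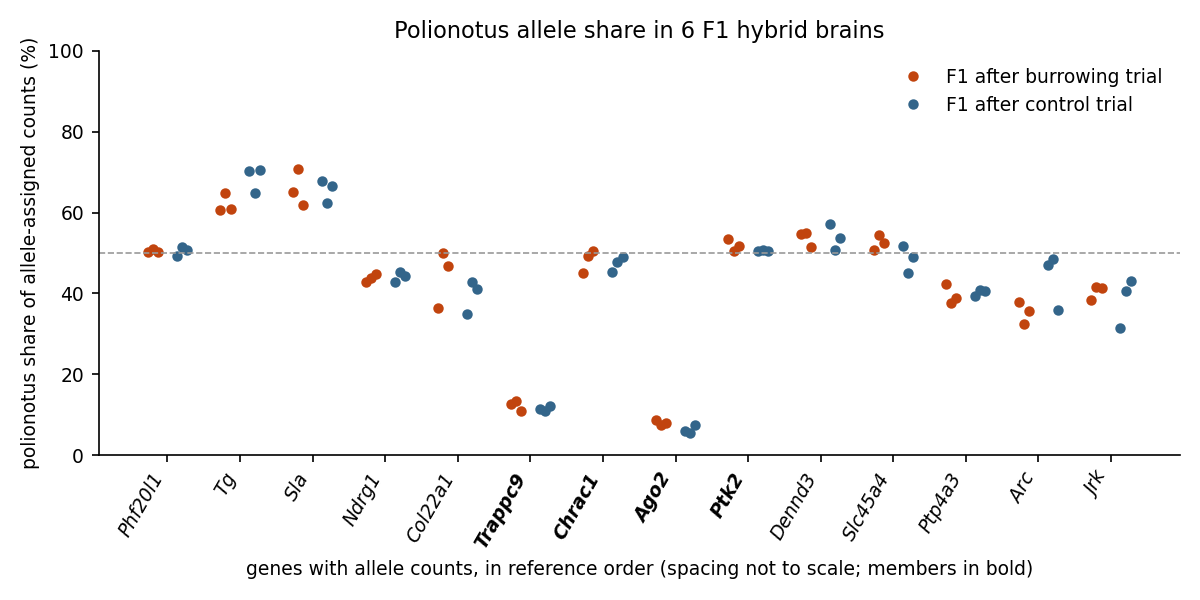
Polionotus share of allele-assigned counts (percent, y axis) for the 14 genes of the region with allele counts, in reference order (x axis, spacing not to scale); each point is 1 F1 animal, after the burrowing trial on the left and after the control trial on the right of each gene, and the dashed line marks 50%. Trappc9 (10.9% to 13.5%) and Ago2 (5.54% to 8.65%) sit far below all other genes shown, with Chrac1 between them at 45.2% to 50.5%.

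The median gene of the count table had a polionotus share of 51.9%, and the 5th and 95th percentiles of the 11928 genes were 34.1% and 76.4%. A share under 50% in all 6 animals was found for 20.6% of the genes, among them Ago2 and Trappc9, and a share above 50% in all 6 for 32.4%, among them Ptk2. Only 37 genes had a lower mean share than Ago2 and 65 a lower one than Trappc9 (0.310% and 0.545% of the table). The smallest deposited count was 2, so genes with fewer counts on an allele in any animal are not in this background. Chrac1 stood above 29% of genes and Ptk2 above 46.7%. With the allele columns of each animal scaled to equal totals, the mean shares were 10.8% for Trappc9, 45.0% for Chrac1 and 48.5% for Ptk2, so the side of 50% on which Ptk2 falls depends on that choice, and Ago2 moved by less than its SD.

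**Figure D2:**
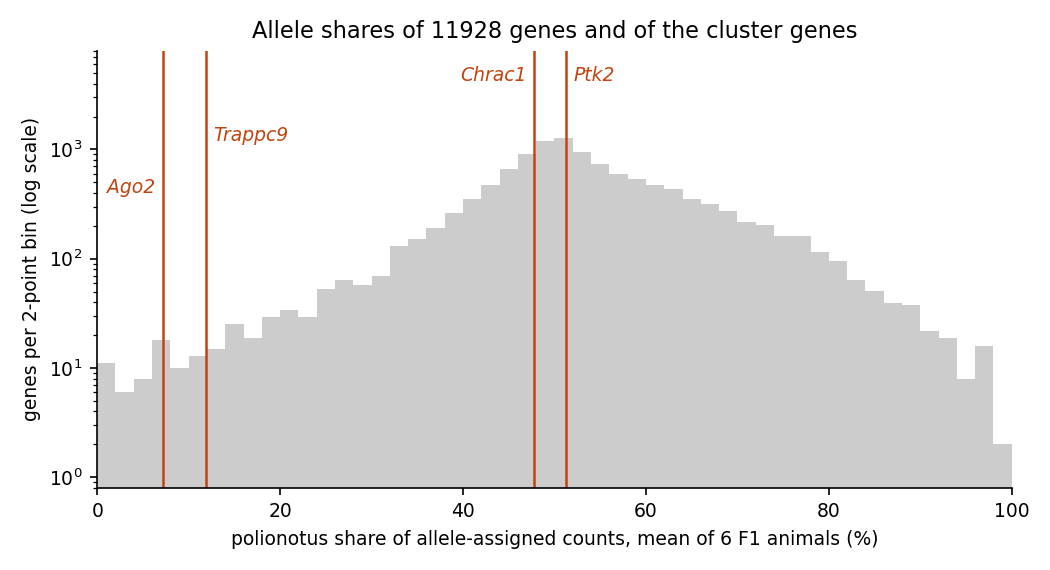
Number of genes per bin of 2 percentage points (y axis, log scale) by polionotus share, averaged over 6 F1 animals (x axis, percent), for 11928 genes; vertical lines mark the cluster genes. Ago2 at 7.18% and Trappc9 at 11.9% stand in the low tail, and Chrac1 at 47.8% and Ptk2 at 51.2% near the peak.

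The flanking genes were nearer to balance than Ago2 and Trappc9, though not than Chrac1 and Ptk2 as a rule. Of the 10 coding genes with a symbol on each side of the cluster, 10 of 20 had allele counts, and their mean polionotus shares ran from 39.4% to 65.8% with a median of 47.2%. Col22a1, a collagen gene and the nearest of these on the Kcnk9 side, was at 42.0% ± 5.85 on only 14 or more counts per animal. Dennd3, an activator of a Rab GTPase beside Ptk2, was at 53.8% ± 2.4, and the solute carrier Slc45a4 after it at 50.5% ± 3.25. Ptp4a3, a phosphatase (40.0% ± 1.65), the activity-regulated gene Arc (39.5% ± 6.57), Jrk (39.4% ± 4.19) and Ndrg1 (44.0% ± 0.957) were below 50% in 6 of 6 animals, beside the 20.6% of all genes given above. The thyroglobulin gene Tg (65.3% ± 4.36), Sla (65.8% ± 3.4) and Dennd3 were above 50% in 6 of 6, beside 32.4% of all genes. Mroh5, a neighbour of Ptp4a3 in mouse that the reference table does not list by this symbol, was looked up after its values were seen and stood far above 50%, at 91.3% ± 1.63.

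The alleles of the same hybrid brain can be set beside the species themselves, which asks whether a skew between alleles comes with a difference between species of like size. It did not for Ago2 or Trappc9. The polionotus allele of Ago2 was at 3.53 ± 0.62 CPM (allele-assigned counts scaled to a fixed library total) in the burrowing hybrids and 2.44 ± 1.2 CPM in the control hybrids, and the maniculatus allele at 40 ± 4.01 and 35 ± 10.9 CPM (SD, n = 3 each). Averaged over the animals, the log2 ratio of the polionotus over the maniculatus allele was -3.71 ± 0.27 for Ago2, while the log2 ratio of mean TPM of *P. polionotus* over *P. maniculatus* was 0.17. For Trappc9 these values were -2.89 ± 0.14 and -0.15, for Chrac1 -0.13 ± 0.13 and 0.32, and for Ptk2 0.07 ± 0.07 and 0.13. Of the 112 genes in both tables with a mean polionotus share under 20%, 65 differed by at most 0.25 log2 between the species and 61 of the 112 were lower in *P. polionotus*, beside 6425 and 3987 of all 9989 genes in both tables.

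**Figure D3:**
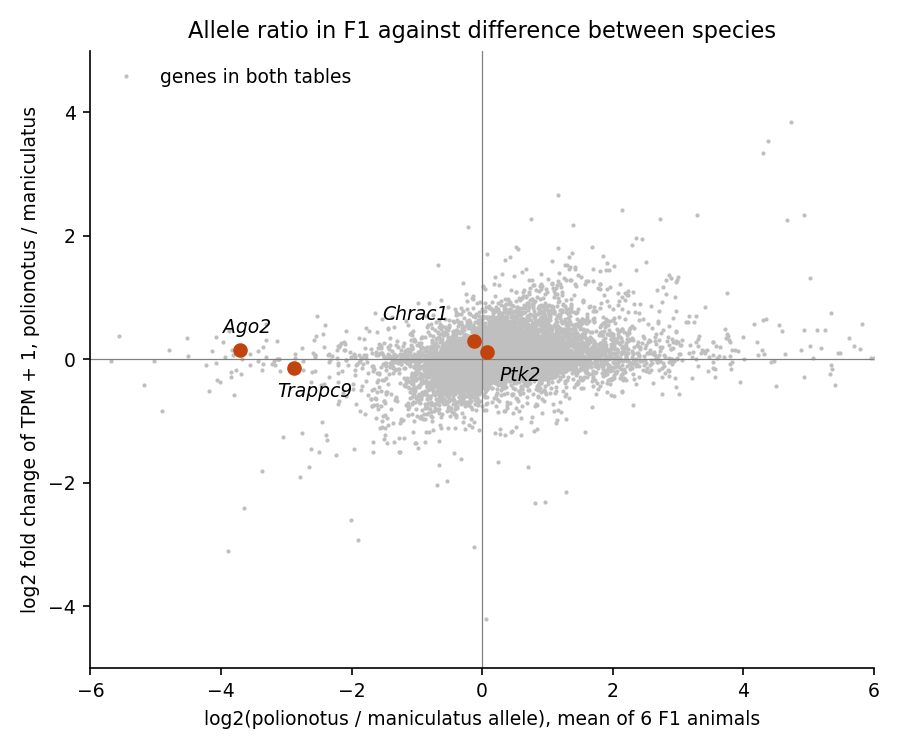
Log2 ratio of the polionotus over the maniculatus allele, mean of 6 F1 animals (x axis), against the log2 fold change of *P. polionotus* over *P. maniculatus* on the log2(TPM + 1) scale (y axis); grey points are genes in both tables, of which 10 lie outside the axes. Ago2 (-3.71) and Trappc9 (-2.89) are far left on the x axis and close to 0 on the y axis.

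In the parental species the 4 genes were expressed at moderate and similar levels. Per length, Chrac1 was the highest, Trappc9 and Ago2 followed, and Ptk2 was the lowest in both species; neighbours in this order overlapped in *P. polionotus* for Trappc9 and Ago2 only. Trappc9 was lower in *P. polionotus*, at 16.1 ± 1.07 TPM against 17.9 ± 0.37 TPM in *P. maniculatus* (SD, n = 6 each), a log2 fold change of -0.15 on the log2(TPM + 1) scale (SE 0.04, limma adjusted p = 0.0175). Chrac1 was higher in *P. polionotus* by 0.3 (SE 0.1, limma adjusted p = 0.0246), Ago2 by 0.16 (SE 0.05, 0.0324) and Ptk2 by 0.12 (SE 0.04, 0.0238). All 4 passed where 52.4% of the 14366 genes tested did, and where the TPM of the species did not overlap for 32.8% of genes, they overlapped for each of these 4.

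The libraries behind these means were as follows. Trappc9 was at 15.3, 15.9 and 18.2 TPM in burrowing and 16.0, 15.9 and 15.3 TPM in control *P. polionotus*, against 18.0, 18.3 and 18.1 TPM in burrowing and 17.9, 17.6 and 17.3 TPM in control *P. maniculatus*. Of the 6 polionotus libraries 5 lay below every maniculatus library, and the exception was burrowing replicate 3. Without it the difference was -0.18 (limma adjusted p = 0.00202).

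Ago2 was at 15.1, 13.3 and 15.5 TPM in burrowing and 12.9, 15.3 and 14.3 TPM in control *P. polionotus*, against 13.3, 13.4 and 13.4 TPM in burrowing and 11.8, 11.8 and 13.0 TPM in control *P. maniculatus*. Here 4 of 6 polionotus libraries lay above every maniculatus library. Chrac1 varied most, at 23.2, 35.2 and 26.0 TPM in burrowing and 32.7, 26.7 and 29.9 TPM in control *P. polionotus*, against 21.9, 26.7 and 24.1 TPM in burrowing and 21.2, 24.5 and 20.5 TPM in control *P. maniculatus*. The species overlapped, and 3 polionotus libraries lay above all of *P. maniculatus*. Ptk2 was at 11.3, 11.7 and 11.7 TPM in burrowing and 11.5, 11.9 and 12.2 TPM in control *P. polionotus*, against 10.4, 11.7 and 10.9 TPM in burrowing and 10.04, 10.5 and 10.5 TPM in control *P. maniculatus*. It was the steadiest in *P. polionotus*, and maniculatus burrowing replicate 2 was the library that reached into the polionotus range.

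**Figure D4:**
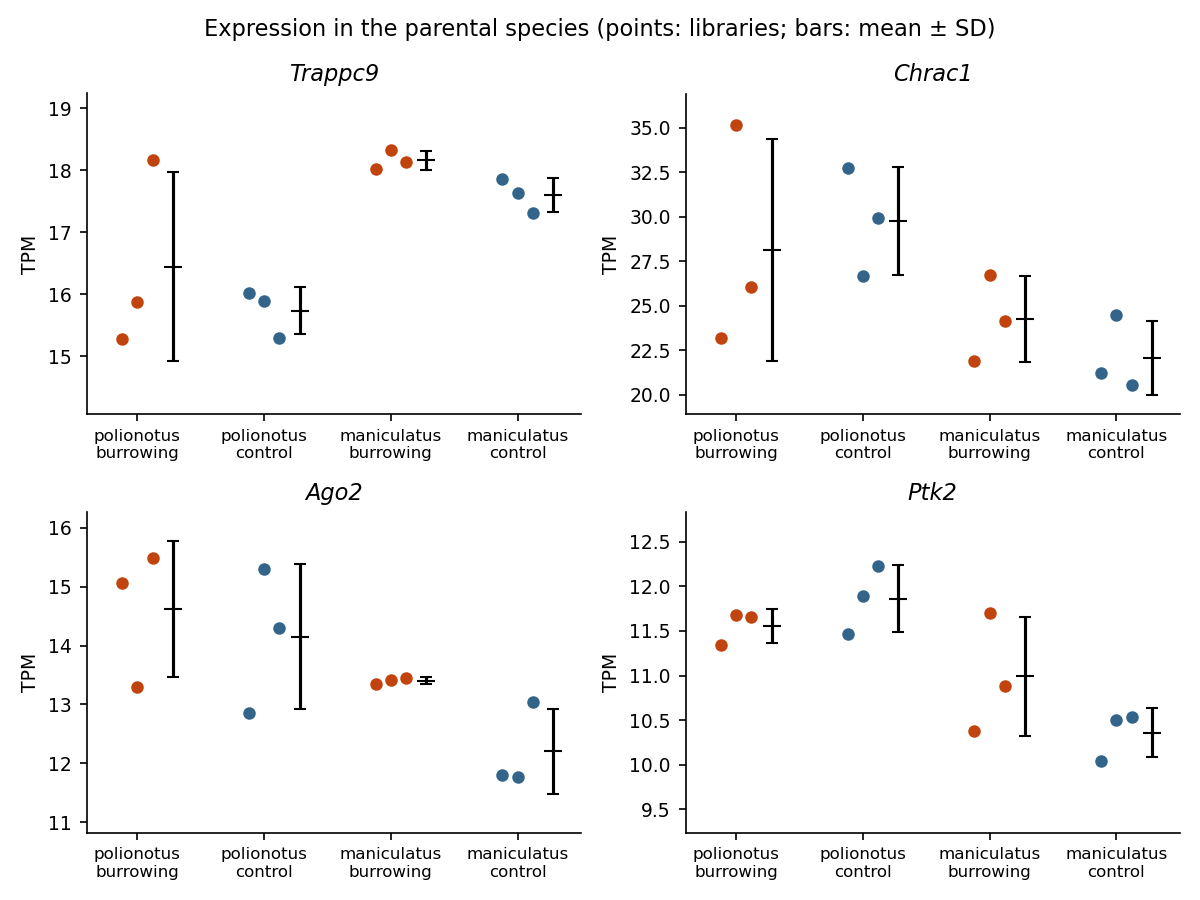
TPM of Trappc9, Chrac1, Ago2 and Ptk2 (y axes, which do not start at 0) in the 4 parental groups (x axes, burrowing and control trial of *P. polionotus*, then of *P. maniculatus*); points are libraries and bars the mean ± SD (n = 3). Trappc9 in *P. polionotus* lies at 15.3 to 16.0 TPM in all libraries but 1 at 18.2, against 17.3 to 18.3 TPM in *P. maniculatus*.

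The calls differed in how they stood up to the processing. With quantile normalization or median scaling, which shift the median of all genes by -0.06 and -0.05 log2, Trappc9 was the only 1 of the 4 to pass, at -0.21 and -0.2 (limma adjusted p = 0.000997 and 0.00159). With these scalings Ago2 was at 0.09 and 0.1, Chrac1 at 0.23 and 0.25 and Ptk2 at 0.04 and 0.07, none of which passed. Trappc9 kept its call without any 1 of the 12 libraries (adjusted p = 0.00202 to 0.0454), but not when polionotus control replicates 2 and 3 were both left out, which are low in hindbrain genes (-0.13, adjusted p = 0.0879). Without the 3 libraries apart on the second component it passed (-0.19, 0.00262) and the other 3 genes did not (0.0505 to 0.0596). Ago2 passed only without polionotus control replicate 1, maniculatus control replicate 3 or polionotus burrowing replicate 2, and without any other single library its adjusted p was 0.0543 to 0.0723. Chrac1 did not pass without polionotus control replicate 1 (0.057), maniculatus burrowing replicate 1 (0.0596), maniculatus control replicate 1 (0.0508) or maniculatus control replicate 3 (0.0531). Ptk2 did not pass without polionotus burrowing replicate 2 (0.0529), polionotus control replicate 3 (0.0556), maniculatus burrowing replicate 1 (0.062), maniculatus burrowing replicate 3 (0.051) or maniculatus control replicate 1 (0.0582).

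Ratios between members within a library do not depend on a linear scaling of libraries. The TPM of Ago2 per TPM of Trappc9 was 0.896 ± 0.0747 in *P. polionotus* and 0.716 ± 0.0408 in *P. maniculatus* (SD, n = 6 each). The ranges, 0.802 to 0.985 and 0.661 to 0.753, did not overlap. The ratio of Ptk2 to Trappc9 was also separate, at 0.642 to 0.799 in *P. polionotus* against 0.562 to 0.639 in *P. maniculatus*. The ratio of Chrac1 to Trappc9 overlapped, at 1.43 to 2.21 in *P. polionotus* against 1.19 to 1.46 in *P. maniculatus*. The ratio of Ago2 to Ptk2 overlapped too, at 1.12 to 1.33 against 1.12 to 1.28. These ratios were computed after the values were seen and are not tested. The ratios to Trappc9 set a gene called lower in *P. polionotus* against genes called higher, so they restate those calls. Single genes did not overlap between the species in 32.8% of cases, and the share of gene pairs was not computed.

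Taken by trial, the direction was the same and fewer differences passed. In control animals Chrac1 was higher in *P. polionotus* by 0.42 (SE 0.14, limma adjusted p = 0.0364) and Ptk2 by 0.18 (SE 0.06, 0.0282), while Ago2 was at 0.2 (SE 0.08, 0.0627) and Trappc9 at -0.15 (SE 0.06, 0.0763); 39.6% of genes were called. The scaling decided which genes passed there: with quantile normalization Trappc9 passed (-0.25, limma adjusted p = 0.00536) and Chrac1 (0.32, 0.112), Ptk2 (0.073, 0.241) and Ago2 (0.096, 0.256) did not. With median scaling Trappc9 passed as well (-0.23, 0.00821), and Chrac1 (0.33, 0.0882), Ptk2 (0.103, 0.119) and Ago2 (0.119, 0.186) did not. After burrowing none of the 4 passed, beside 34.1% of genes, with 0.11 (SE 0.08) for Ago2, 0.19 (SE 0.14) for Chrac1, 0.07 (SE 0.06) for Ptk2 and -0.14 (SE 0.06, adjusted p = 0.113) for Trappc9. Trappc9 passed after burrowing without polionotus burrowing replicate 3 (-0.21, 0.015), with quantile normalization (-0.18, 0.0278) and with median scaling (-0.17, 0.0358). The other 3 values after burrowing also moved with single libraries: Chrac1 was at 0.023 without polionotus burrowing replicate 2 and 0.313 without polionotus burrowing replicate 1, Ago2 at 0.073 without polionotus burrowing replicate 3 and 0.176 without polionotus burrowing replicate 2, and Ptk2 at 0.031 without maniculatus burrowing replicate 1 and 0.111 without maniculatus burrowing replicate 2. In control animals Chrac1 did not pass without polionotus control replicate 1 or 3 or maniculatus control replicate 1 or 3 (0.0819 to 0.111), nor Ptk2 without polionotus control replicate 2 or 3 or maniculatus control replicate 1 or 2 (0.0513 to 0.0926). There, Ago2 passed without polionotus control replicate 1 (0.0264) or maniculatus control replicate 3 (0.0461), and Trappc9 without polionotus burrowing replicate 3 (0.0266). The interaction of species and trial passed for none of the 4, with log2 differences from -0.23 (SE 0.2) for Chrac1 to 0.01 (SE 0.09) for Trappc9; limma called no gene (0, or 0.0%), and 415 (2.89%) had an unadjusted p under 0.05.

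No member passed a test of the burrowing trial. In *P. polionotus* the log2 fold changes of burrowing over control were 0.04 (SE 0.08) for Ago2, 0.06 (SE 0.06) for Trappc9, -0.1 (SE 0.14) for Chrac1 and -0.03 (SE 0.06) for Ptk2, where limma called 0 genes, or 0.0%, and 446 (3.1%) had an unadjusted p under 0.05. In *P. maniculatus* they were 0.13 (SE 0.08), 0.04 (SE 0.06), 0.13 (SE 0.14) and 0.08 (SE 0.06), and limma called 1 gene, or 0.00696%, beside 2.03% with an unadjusted p under 0.05. In the hybrids, Ago2 summed over both alleles was at 48.8, 40.2 and 41.6 CPM after burrowing and 28.3, 32.9 and 51.1 CPM in controls, and the trials overlapped. Its log2 fold change was 0.21 (SE 0.21), beside -0.17 (SE 0.14) for Trappc9, -0.35 (SE 0.2) for Chrac1 and -0.03 (SE 0.14) for Ptk2. Ago2 was at 0.055 without control replicate 1 and 0.46 without control replicate 3, and Trappc9 at -0.284 without burrowing replicate 1 and -0.041 without burrowing replicate 2. In this comparison edgeR called 0 genes (0.0%) where 90 (0.755%) had an unadjusted p under 0.05, and DESeq2 called 2. Trappc9 stood at 120 ± 17.2 CPM after burrowing and 133 ± 11.3 CPM in controls, Ptk2 at 74.7 ± 7.25 and 75.01 ± 8.88 CPM, and Chrac1 at 4.93 ± 0.332 and 6.21 ± 0.723 CPM (SD, n = 3 each). Chrac1, with only 73 to 292 counts per animal, was at 4.72, 5.31 and 4.75 CPM after burrowing. In controls it was at 6.40, 6.83 and 5.42 CPM. How many of all genes show such a spread of CPM by trial was not computed, so nothing is read from it. Chrac1 did not pass edgeR's test (unadjusted p = 0.122, adjusted p = 0.965).

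The share of Ago2 did not overlap between the trials, with the 3 burrowing hybrids at 7.55% or more and the 3 control hybrids at 7.48% or less. The trials were separate in this direction for 4.54% of genes and in either direction for 7.95%. The change in the log2 allele ratio was 0.37 (SE 0.15), which did not pass edgeR's allele by trial test (unadjusted p = 0.12, adjusted p = 1). The lowest shares belonged to control replicates 1 and 2, which also had the fewest allele-assigned counts of Ago2, 323 and 415, and the lowest library totals, 11415175 and 12595542; the part of depth was not tested. Control replicate 3, with the highest total, was at 7.48%. For Trappc9 the change was 0.12 (SE 0.11), for Ptk2 0.07 (SE 0.07) and for Chrac1 0.05 (SE 0.15), and 0.226% of genes were called, with 2.23% at an unadjusted p under 0.05.

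Among the listed partners and family members that had allele counts, none had a mean share as low as Ago2 or Trappc9. The same holds for nearly all genes, so it sets these lists apart from no others. Only 0.310% of the table had a lower mean share than Ago2 and 0.545% a lower one than Trappc9, which were picked for low shares. The other argonautes Ago1 and Ago3 had mean polionotus shares of 53.8% ± 3.98 and 64.1% ± 4.41, against 7.18% for Ago2. Over 9 RNA silencing genes with allele counts, among them the nucleases Dicer1 (46.3% ± 1.63) and Drosha (41.8% ± 0.99), the mean shares ran from 41.8% to 64.1%. Over 11 other TRAPP subunits they ran from 32.4% for Trappc6a to 71.8% for Trappc11, with Trappc10, the partner of Trappc9 in TRAPPII, at 52.9% ± 0.95. Over 11 focal adhesion genes the range was 41.3% to 61.0%, the highest being Arhgef7, whose animals ran from 39.3% to 99.1%, and over 6 two-pore channels 45.0% to 74.3%.

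Between the species 4 of these 5 lists held genes called in each direction. Of 11 RNA silencing genes tested, 4 were higher and 1 lower in *P. polionotus*, with a median of 0.15 beside 0.06 for all genes tested. The nuclear export receptor Xpo5, which carries pre-miRNAs, averaged 25.3 ± 1.72 TPM in *P. polionotus* against 17.9 ± 1.34 TPM in *P. maniculatus* (0.48, SE 0.06, limma adjusted p = 7.3e-05). Drosha averaged 10.6 ± 1.21 TPM in *P. polionotus* against 15.2 ± 0.997 TPM in *P. maniculatus* (-0.48, SE 0.07, 0.000188). Of 13 TRAPP subunits 3 were higher and 3 lower with a median of -0.03; Trappc6a averaged 7.44 ± 0.593 TPM in *P. polionotus* against 13.5 ± 1.18 TPM in *P. maniculatus* (-0.78, SE 0.06, adjusted p = 2.39e-06), and Trappc2 was also lower (-0.56, SE 0.05, 5.44e-06). Of 12 focal adhesion genes 5 were higher and 2 lower with a median of 0.11, led by the adaptor Bcar1 (0.4, SE 0.05, adjusted p = 5.52e-05) and vinculin, Vcl (0.45, SE 0.05, 5.63e-05). Of 8 two-pore channels 3 were higher and 2 lower with a median of -0.01; Kcnk4 was lower (-0.59, SE 0.08, 0.000124) and Kcnk2 higher (0.37, SE 0.05, 0.000159). Of 3 chromatin partners of Chrac1, Baz1a was higher (0.3, SE 0.09, 0.0182), while Pole3 (0.16, SE 0.07) and Smarca5 (0.04, SE 0.04) did not pass. For all these lists the background is the 52.4% of genes called, 32.6% higher and 19.8% lower. In none of the 5 lists did a gene pass a trial test in either species or in the hybrids.

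Among genes imprinted in mouse, Cobl of 16 listed as maternally read and Bcl2l1 of 25 listed as paternally read were analysed here. Bcl2l1 had a polionotus share of 60.4% ± 1.14, and it differed by 0.03 (SE 0.04) between the species. Cobl had no allele counts and differed by 0.16 (SE 0.07, limma adjusted p = 0.0581).

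The flanking genes tested between species numbered 14, of which Dennd3 (0.57, SE 0.06, limma adjusted p = 1.19e-05), the lymphoid adaptor Sla (0.59, SE 0.17, 0.0125) and Phf20l1, a chromatin reader (0.14, SE 0.05, 0.0211), were higher in *P. polionotus* and none lower, beside 32.6% of all genes tested that were higher and 19.8% that were lower. Mroh5, which is not among the 14 and was looked up after its values were seen, was also higher (0.85, SE 0.06, limma adjusted p = 8.8e-07).

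The genes most like each member are given as a description. In polionotus share, by the mean absolute difference over the 6 hybrid animals among genes with at least 100 counts, B3gnt2 (0.875 points), Rab28 (1.12) and Prosc (1.15) were nearest to Ago2, Vps37a (1.04), Mtmr6 (1.07) and Dnajc30 (1.43) to Trappc9, Sec23ip (0.8), Kiaa0753 (0.867) and Ing3 (0.906) to Chrac1, and Usp7 (0.3), Pld1 (0.515) and Eps15 (0.533) to Ptk2. In TPM over the 12 parental libraries, among genes of at least 5 TPM, Txlng, Rprd2 and Homer2 followed Ago2 (Pearson r of 0.918, 0.91 and 0.906), Entpd4, Enpp4 and Crebl2 followed Trappc9 (0.939, 0.92 and 0.917), Rpusd3, Gli1 and Cby3 followed Chrac1 (0.866, 0.852 and 0.846), and Cacna1b, Nedd4l and Slit1 followed Ptk2 (0.968, 0.966 and 0.964). These libraries share the difference between species and between trials, and each gene was picked as the closest of all that passed these minimums.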

How the data were processed

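The authors deposited TPM per gene for 12 parental libraries and integer counts for each allele of each gene in 6 hybrid animals. STAR 2.4.2a is named in the submitters' processing notes; the sources do not give genome build, annotation, allele assignment or the making of TPM, so unequal alignment of the alleles or species could move every value. The smallest deposited count was 2. The TPM row that names no gene (0.789% to 2.48% of all TPM of a library, this row included) was left out. Groups and replicate numbers came from sample titles, and each library was taken as 1 animal; p-values measure spread between these libraries.

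TPM were tested with limma 3.58.1 (mean trend, 1 mean per group, 12 libraries in 1 fit) in R 4.3.3 on log2(TPM + 1), which understates changes of low genes, for the 14366 genes that averaged 1 TPM or more. Hybrid counts were tested with edgeR 4.0.16 (quasi-likelihood, TMM, filterByExpr), and allele counts with animal as block, both alleles' sum as library size and a minimum mean of 20 counts; SE of edgeR values come from the F statistic, and edgeR holds p at or above that of a Poisson fit. DESeq2 1.42.0 was an alternative. Tests were two-sided, p was Benjamini-Hochberg adjusted over all genes, and a gene was called under 0.05. Wilson intervals use 95%. Scripts were tested on simulated data. Same-numbered replicates did not vary together as a rule. Replicates of a parental group had Spearman correlations of 0.99 to 0.994 across genes. The members and lists were chosen with earlier results of these data known. Genes named by rule are the members, 10 coding genes on each side, the 2 list members with the smallest p and the 3 genes most like each member. Outside this rule, Ago1, Ago3, Dicer1, Trappc10, Trappc11, Arhgef7 and Smarca5 were named from the lists, and Mroh5 after its values were seen. Of the gene names, 84.7% (TPM) and 85.1% (counts) matched the reference table.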

Additional observations from a re-analysis of the deposited data

Results flagged for a closer look

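Among the values given for 6 libraries or animals, 2 stood apart from the rest of their group, where chance flags about 1 group in 20. Trappc9 in polionotus burrowing replicate 3, at 18.2 TPM, lay above the other polionotus libraries by 0.744 of the whole range; that library also lies apart on the second principal component. The polionotus share of Ptk2 in F1 burrowing replicate 1, at 53.5%, lay above the other hybrids by 0.626 of the range.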

How the results depend on the processing

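Between species over both trials 4 members were called. Quantile normalization, median scaling and leaving out the 3 libraries apart on the second component each left 1, Trappc9. Leaving out any 1 library left 1 to 3. In these 3 settings Ago2, Chrac1 and Ptk2 stood at 0.086, 0.23 and 0.044 (quantile), 0.101, 0.25 and 0.070 (median scaling) and 0.13, 0.34 and 0.13 (without the 3 libraries). Polionotus control replicates 2 and 3 were also left out together, which left 1 library in that group. Without these 2 control libraries Ago2 was at 0.093, Chrac1 at 0.37, Ptk2 at 0.102 and Trappc9 at -0.13. Leaving out the 3 libraries and leaving out the 2 were both chosen after seeing the data. Without single libraries the values were 0.13 to 0.19 for Ago2, 0.22 to 0.36 for Chrac1, 0.11 to 0.15 for Ptk2 and -0.18 to -0.12 for Trappc9. In control animals (2 called, Chrac1 and Ptk2) the count was 1 with no filter (Ptk2) and only the groups compared (Chrac1). It was also 1 with quantile normalization, median scaling or without the 3 libraries, but that gene was Trappc9 (-0.25, -0.23 and -0.17) and neither Chrac1 nor Ptk2 passed. It was 0 without the 2 control libraries and 0 to 3 without single libraries. After burrowing (0 called) it was 1 with quantile normalization, median scaling or without the 3 libraries, each time Trappc9 (-0.18, -0.17 and -0.21), and 0 to 1 without single libraries. Of all genes called between species 62.3% were higher in *P. polionotus*, against 49.8% with quantile normalization and 51.3% with median scaling. Scaling the allele columns to equal totals gave shares of 10.8% for Trappc9, 45.0% for Chrac1 and 48.5% for Ptk2. The causes were not tested.

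Directions turned only where no test passed. The trial difference in *P. polionotus* ran, without single libraries, from -0.262 to 0.028 for Chrac1 (highest without polionotus burrowing replicate 1), from -0.013 to 0.104 for Trappc9 (lowest without burrowing replicate 3) and from -0.019 to 0.106 for Ago2 (lowest without control replicate 1), and was 0.0101 for Ptk2 without the 2 control libraries and -0.0068 for Trappc9 without the 3 libraries. The interaction of Trappc9 ran from -0.056 to 0.061 without single libraries (below 0 without polionotus burrowing replicate 3, and at -0.0054 without control replicate 3) and was -0.011 without the 2 control libraries and -0.038 without the 3, and that of Ago2 was 0.043 without the 2. The trial difference of Ptk2 in hybrids ran from -0.088 to 0.085 without single animals (0.026 without burrowing replicate 1, highest without control replicate 1), and the allele by trial value of Chrac1 from -0.0071 (without burrowing replicate 3) to 0.142, with -0.0036 without control replicate 1.

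Same-numbered libraries did not deviate together as a rule, so the numbers were not taken to pair samples. Their correlations were -0.23 to 0.55 in the parents, 5 of 18 above 0.1, and -0.57 to 0.19 in the hybrids, 1 of 3. Differently numbered libraries ran from -0.39 to 0.30 in the parents and from -0.18 to 0.64 in the hybrids. The highest parental value, 0.55, thus belonged to a same-numbered pair. The replicate block changed no member's call (Trappc9 -0.15, adjusted p = 0.0253). Over all genes, calls in the control trial fell to 2728 without the 2 control libraries, against 5696 with them, and the allele by trial test called 60 genes with DESeq2, 11 with the replicate number as block and 10 to 73 without single animals, against 27. Counts of all-gene trial calls were 0 to 3 in *P. polionotus*, 0 to 6 in *P. maniculatus* and 0 to 2 for the interaction. Depth limits Chrac1 most, with 73 counts in the shallowest hybrid.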
